A study of Homo sapiens with 29 samples.

Results

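Open chromatin was followed over the HOX clusters A to D of 22Rv1 cells, an androgen-responsive human prostate cancer line, in 29 ATAC-seq libraries. ATAC-seq cuts accessible DNA with a transposase, and each library was deposited as a list of peaks on the human build hg19. A peak belonged to a cluster if it overlapped chr7:27100000-27300000 (HOXA), chr17:46580000-46740000 (HOXB, with HOXB13 left out), chr12:54300000-54470000 (HOXC) or chr2:176920000-177070000 (HOXD), and overlapping peaks were merged over all libraries. This gave 103 regions of 166696 in the genome, with 33 in HOXA, 22 in HOXB, 30 in HOXC and 18 in HOXD. The windows cover the 37 HOX genes considered here. Parental cells received DMSO at 0.1%, the stereoprobe WX-02-23 or the stereoprobe WX-02-43 at 20 µM each, or PladB at 10 nM or 100 nM, with 3 libraries in each of these 5 groups. The engineered lines all carried overexpressed Y36C-PHF5A together with a doxycycline-inducible WT-FOXA1 or C258A-FOXA1. They formed 7 groups of 2 libraries. With Dox, the WT-FOXA1 line received DMSO, WX-02-23 at 20 µM or PladB at 100 nM, as did the C258A-FOXA1 line. Without Dox, the WT-FOXA1 line received DMSO only. Every treatment lasted 3 h. The labels do not give the state of the native FOXA1 gene in the engineered lines.

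HOX genes encode homeodomain transcription factors that give cells their position along the body axis. They lie in clusters in which the order of the genes follows the order of their expression domains, and the genes of equal number in different clusters are paralogues. In the prostate, which arises from the posterior urogenital sinus, the posterior genes of the HOXA and HOXD clusters are known for their part in development. FOXA1 is a forkhead pioneer factor that opens chromatin for the androgen receptor in luminal prostate cells. PladB, pladienolide B, inhibits the SF3B complex of the spliceosome, of which PHF5A is a subunit. From the low to the high coordinate, HOXA and HOXB run from anterior to posterior genes (HOXA2 to HOXA13 and HOXB1 to HOXB9), while HOXC and HOXD run from posterior to anterior genes (HOXC13 to HOXC4 and HOXD13 to HOXD1).

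The upstream sequence of 20 of the 37 genes was read from RefSeq on build GRCh38.p14, and these 3 are shown for the words they hold. They are the 250 bases before the start site, printed on the gene's strand. The first, chr12:54016638-54016887 on the plus strand, is listed for both HOXC4 and HOXC5. Its capitals mark the forkhead words TGTTTAC and TGTTTGC on either strand. HOXD13 lies at chr2:176092471-176092720 on the plus strand and HOXA9 at chr7:27165538-27165787 on the minus strand. Their capitals mark the E-box CACGTG and the TATA word TATAAAA on either strand.
HOXC4: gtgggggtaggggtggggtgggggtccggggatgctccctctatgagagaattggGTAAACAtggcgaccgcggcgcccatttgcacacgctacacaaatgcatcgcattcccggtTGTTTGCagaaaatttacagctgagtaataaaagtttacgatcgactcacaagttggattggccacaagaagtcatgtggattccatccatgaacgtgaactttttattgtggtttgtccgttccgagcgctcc
HOXD13: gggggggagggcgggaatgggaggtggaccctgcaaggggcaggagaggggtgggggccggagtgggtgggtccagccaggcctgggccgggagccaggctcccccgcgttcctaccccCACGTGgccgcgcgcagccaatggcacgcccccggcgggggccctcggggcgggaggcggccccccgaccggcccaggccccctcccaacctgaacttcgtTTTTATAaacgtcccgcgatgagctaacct
HOXA9: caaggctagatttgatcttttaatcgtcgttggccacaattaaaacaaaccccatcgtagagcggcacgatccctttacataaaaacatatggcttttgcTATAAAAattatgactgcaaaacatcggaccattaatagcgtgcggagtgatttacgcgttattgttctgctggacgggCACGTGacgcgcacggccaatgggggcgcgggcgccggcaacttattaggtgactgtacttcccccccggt

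Among the 27 upstream sequences listed for these 20 genes, the word TGTTTAC or its complement was present in 2 (7.41%, against 2.98% of 35093 upstream sequences of all genes), both of them the shared HOXC4 and HOXC5 sequence. TGTTTGC or its complement was present in the same 2 (7.41% against 3.23%). CACGTG was present in the sequences of 8 genes, namely HOXA3, HOXA4, HOXA9, HOXD1, HOXD3, HOXD10, HOXD11 and HOXD13 (29.6% of sequences against 6.34%). CCAAT or its complement was present in the sequences of 17 genes (66.7% against 32.0%). The median sequence had 19 CG dinucleotides, against 11 over all genes, at a G+C content of 58.8% against 58%. The TALE word TGACAG, a core of the sites of HOX partner proteins, was present in 2 genes, HOXA2 and HOXA4 (7.41% against 13.03%). Both strands were searched, and overlaps between matches of different words were kept. A match describes letters only. The coordinates of this build were not set against the hg19 peaks, so no peak is assigned to a gene here.

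The peak lists held 62832 to 98193 peaks covering 21.8 to 40.6 Mb. The labels do not say whether replicates came from separate cultures, so spreads may be technical. Total reads are not given, but the local background implied by each list's fold and p-values lay between 0.546 and 1.502 reads per base, highest in replicate 3 of parental WX-02-43. A region without a peak in a library may hold signal below the caller's limit at that depth. Parental and engineered lists carry different processing folders in their peak names, so the line, the genotype and the processing cannot be told apart. Luminal marker loci were not checked, because gene positions on hg19 were not used here.

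The HOX windows held 15.1 regions per 100 kb, against 5.39 over the genome. A peak was present in all 29 libraries in 33 of the 103 regions (32.0%), against 21.5% of the regions of the genome. By contrast, 10 regions (9.71%) occurred in a single library, against 16.9% genome-wide. The clusters differed in this respect: 12 of 33 regions in HOXA, 9 of 22 in HOXB and 9 of 30 in HOXC were held by every library, but only 3 of 18 in HOXD. These shares are a description with no test. In parental DMSO cells the share of the window under peaks was 6.42% ± 0.20 (SD, n = 3) in HOXA, 6.85% ± 0.25 in HOXC, 4.26% ± 0.09 in HOXB and 2.47% ± 0.07 in HOXD, against 1.24% ± 0.04 of the genome. HOXC exceeded HOXA in the mean, but the lowest HOXC library only just exceeded the highest HOXA library (6.62 to 7.12% and 6.22 to 6.62%). HOXB lay below both and HOXD below HOXB in each of these libraries. With Dox and DMSO, the WT-FOXA1 line kept the order of the lower 2, at 4.86% in HOXA, 4.53% in HOXC, 3.65% in HOXB and 1.46% in HOXD.

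**Figure D1:**
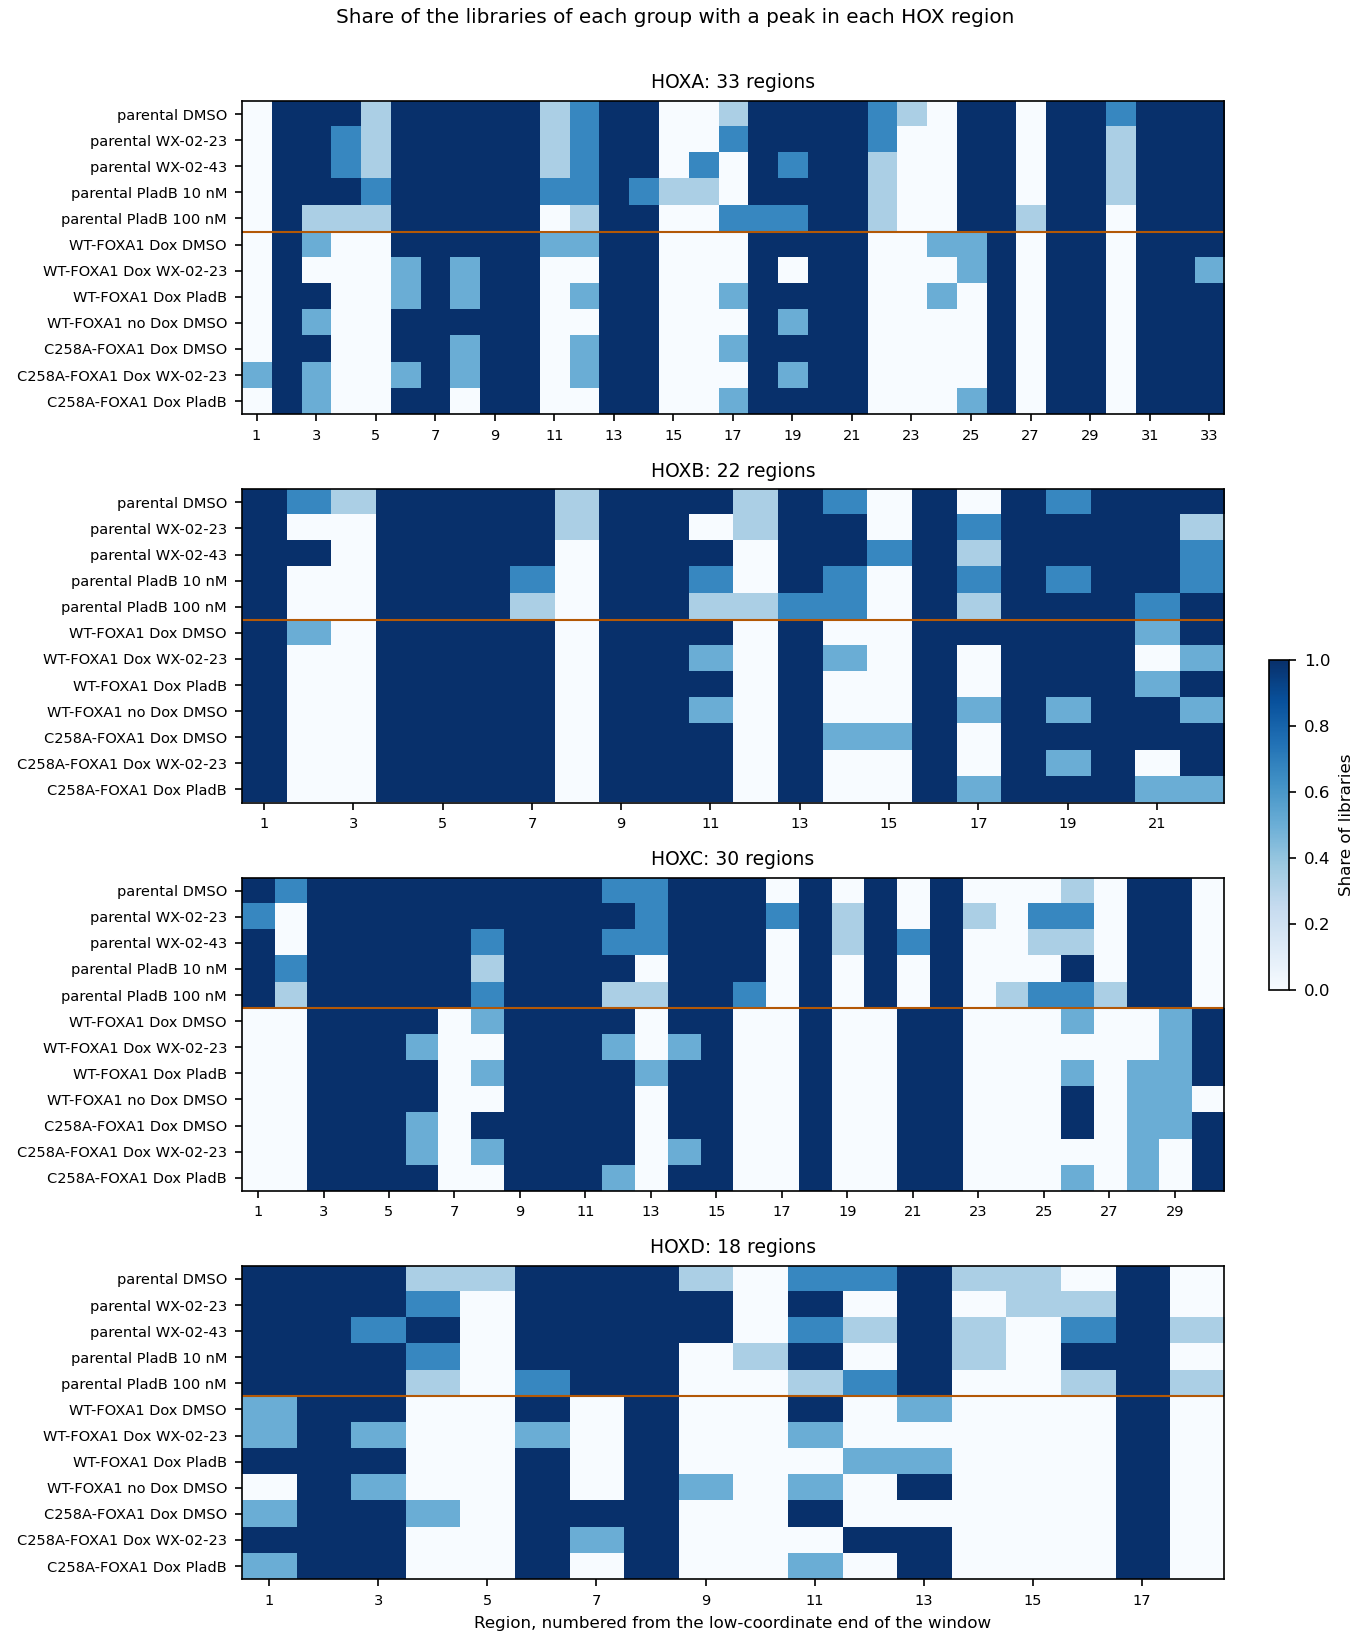
Each panel is a cluster, each column a merged region in order from the low-coordinate end of the window, and each row a group; the shade gives the share of the group's libraries with a peak there, and the line separates parental from engineered groups. Of the 103 regions, 33 are dark in every row, and the last HOXC region is dark in the Dox groups only.

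Position along the clusters was uneven. In HOXA the fullest 10 kb lay 90 to 100 kb from the low end of the window, with a mean of 1963 bp under peaks in parental and 1565 bp in engineered libraries. In HOXB the fullest 10 kb lay at 100 to 110 kb (1473 and 1339 bp). The low-coordinate side of the HOXB window, up to its midpoint, held only 25.2% of the bases under peaks in parental and 25.8% in engineered libraries. In HOXC the fullest bin was at 70 to 80 kb (1734 and 1295 bp), with 48.6% and 46.2% of the bases on the low side. The low side was there the first 80 of 170 kb, since whole bins were counted. HOXD was the reverse of HOXB: 81.3% of the bases under peaks in parental and 78.3% in engineered libraries lay on the low side. This side, the first 70 of 150 kb, is by gene order the end of HOXD13. The fullest HOXD bin differed between the kinds of cells, at 30 to 40 kb in parental (916 bp) and at 20 to 30 kb in engineered libraries (617 bp).

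**Figure D2:**
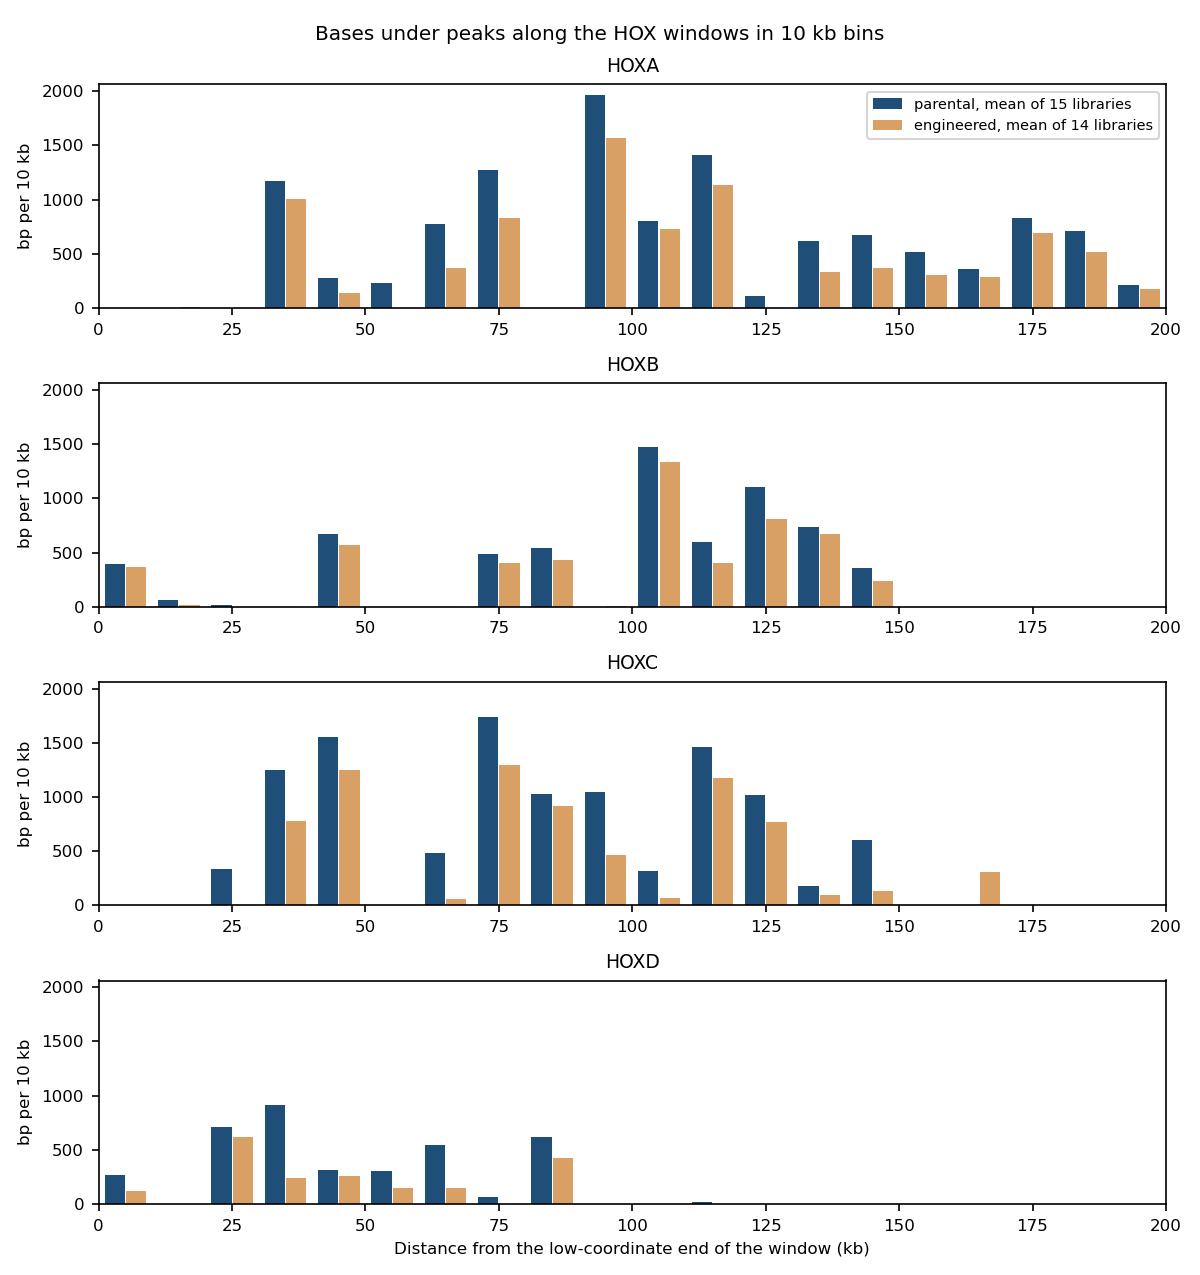
Mean bases under peaks (bp) in each 10 kb bin, against the distance in kb from the low-coordinate end of the window, for 15 parental and 14 engineered libraries. HOXD is filled on the left and almost empty beyond 90 kb, and the fullest HOXB bin lies at 100 to 110 kb in both kinds of cells.

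The longest stretches without a peak in any of the 29 libraries were in HOXB and HOXD. In HOXB, chr17:46621390-46655370 held none over 34.0 kb (21.2% of the window). In HOXD, chr2:177005897-177039744 was empty over 33.8 kb and chr2:177039988-177070000 over a further 30.01 kb, interrupted only by a 243 bp region that 2 parental libraries held. The longest empty stretch of HOXA, chr7:27110777-27135332, was 24.6 kb, and that of HOXC, chr12:54300001-54321640, was 21.6 kb.

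The strongest regions were present everywhere. Strength is given as the percentile of the authors' p-value within a library's own list. In HOXA the region with the highest median percentile was chr7:27169847-27171094, at 97.1 (94.5 to 98.8 over the 29 libraries), with a median fold over background of 16.2. In HOXC, chr12:54331901-54333419 reached 96.1 (89.3 to 98.8), at a median fold of 11.9. In HOXB, chr17:46662377-46663076 reached 88.6 (79.6 to 93.9) and a fold of 13.98. In HOXD, chr2:176941699-176942230 reached 83.0 (62.1 to 95.0) and a fold of 11.9. HOXD thus had strong peaks of its own, but its next regions were weaker and more variable: chr2:177005239-177005896 had a median percentile of 63.0 (33.8 to 75.1) and chr2:176962155-176962888 of 52.3 (7.20 to 73.5). The other strongest regions were chr7:27135333-27136824 (91.5) and chr7:27214794-27215246 (91.2) in HOXA, chr17:46702434-46703724 (82.1) and chr17:46713851-46714340 (78.2) in HOXB, and chr12:54410382-54412244 (81.5) and chr12:54343442-54344453 (77.1) in HOXC.

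Some regions separated parental from engineered cells. A peak was present in all 15 parental and in no engineered library at chr12:54367393-54367858 and chr12:54422049-54422651, and in no region of the other clusters. These 2 are 1.94% of the HOX regions, against 0.614% of regions genome-wide. At chr12:54367393-54367858 the parental percentiles ran from 23.4 through a median of 62.3 to 71.0, and at chr12:54422049-54422651 from 23.9 through 43.0 to 70.5, so both were mid-strength peaks. A further pair, chr12:54321641-54322347 and chr12:54402626-54402909, was held by 14 of 15 parental and 0 of 14 engineered libraries. Both pairs were singled out after their values were seen. The opposite pattern occurred at chr12:54426421-54426859, held by all 14 engineered libraries at percentiles of 15.7 to 58.9, and otherwise by 2 of the 3 parental WX-02-43 libraries at 10.3 and 14.2. No HOX region was held by all engineered and no parental library (0.101% genome-wide). In HOXD, chr2:176957369-176958314 was held by all 15 parental libraries over 369 to 839 bp and by 3 engineered libraries, all of the C258A-FOXA1 line, over 153 to 174 bp. Bases under peaks in the HOXA window ran from 10.6 to 13.2 kb in parental and from 5.73 to 9.98 kb in engineered libraries, without overlap, and in HOXD from 2.86 to 5.03 and from 1.17 to 2.62 kb, also without overlap. In HOXB (4.91 to 7.68 and 4.07 to 6.25 kb) and HOXC (8.96 to 12.4 and 6.06 to 9.15 kb) they overlapped. The whole lists overlapped as well (31.3 to 40.6 and 21.8 to 33.8 Mb). Relative to the list, HOX bases per 10000 covered bases ran from 8.23 to 9.42 in parental and from 7.65 to 9.13 in engineered libraries. These ranges overlapped, and the share was not computed for single windows.

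**Figure D3:**
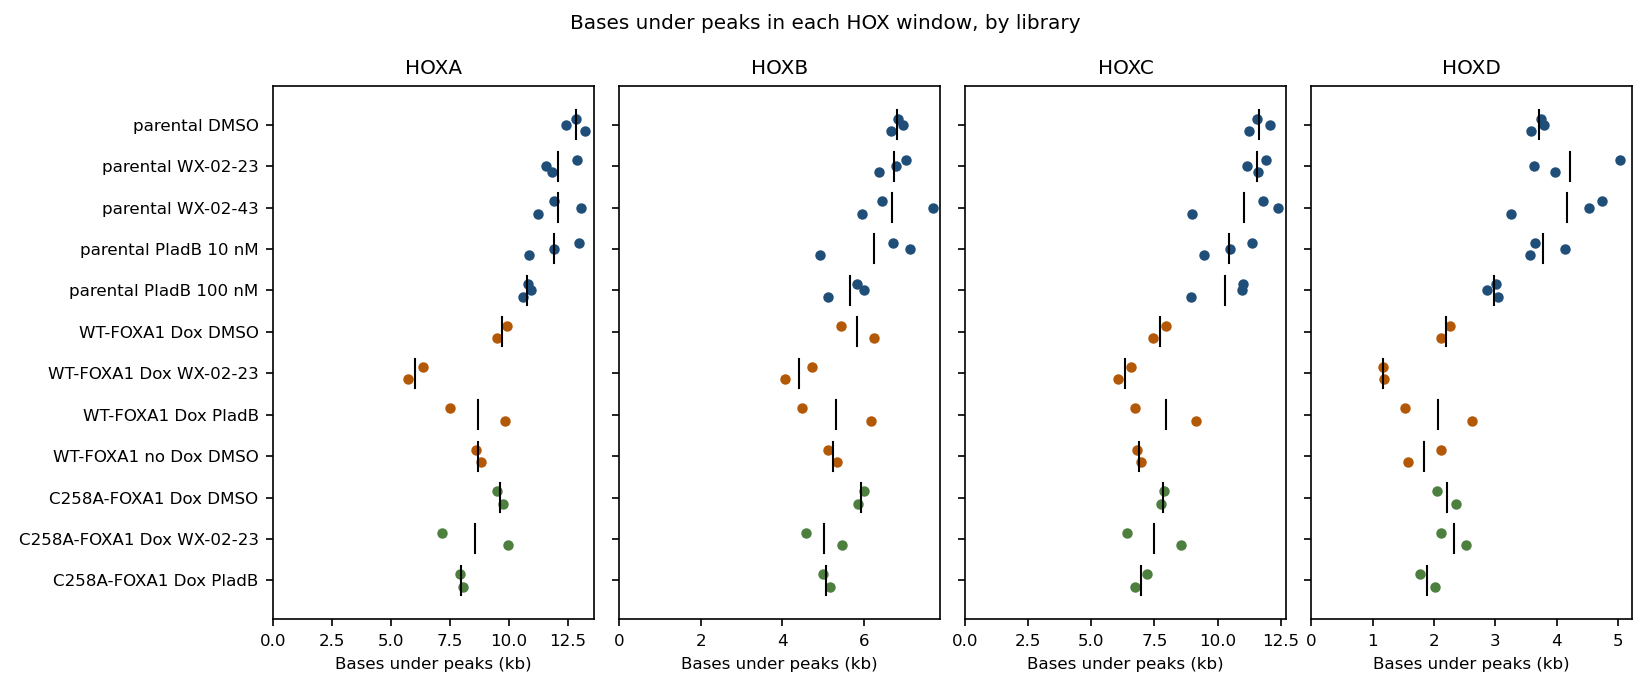
Bases under peaks (kb) in each HOX window, 1 point per library and a bar at each group's mean; parental groups are blue, WT-FOXA1 groups orange and C258A-FOXA1 groups green. The group mean of the WT-FOXA1 line with WX-02-23 is the lowest in all 4 windows, and its libraries lie at 5.73 and 6.35 kb in HOXA.

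In parental cells, few HOX regions separated either stereoprobe from DMSO in all libraries, although 34 of 91 regions for WX-02-23 and 37 of 93 for WX-02-43 were held by some but not all of the 6 libraries compared. A region is called gained when every library of the first group and none of the second has a peak, and lost in the reverse case. With 3 libraries against 3, a permutation test cannot go below 0.1, so no test of single comparisons was made. After WX-02-23, 0 HOX regions of 91 were gained against DMSO (1.82% of regions genome-wide) and 1 was lost (1.18% genome-wide). The lost region was chr17:46687589-46688162 in HOXB. In the DMSO libraries it stood at percentiles 1.28, 19.4 and 5.09, among the weakest peaks of their lists, and it was also present in the 3 WX-02-43 libraries (5.60, 23.8 and 14.7). The bases under peaks in the 4 windows were 33.2, 33.8 and 36.9 kb after WX-02-23 and 34.73, 34.99 and 35.27 kb in DMSO. The groups overlapped. After WX-02-43 the libraries held 29.4, 34.9 and 37.7 kb. No HOX region of 93 was gained (0.34% genome-wide) or lost (0.369%) with this compound, and the library with 29.4 kb is the one with the highest background.

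The 2 stereoprobes, which the labels distinguish by name only, were compared at the same dose of 20 µM and time of 3 h. Against WX-02-43, WX-02-23 had 0 gained regions of 91 (1.6% genome-wide) and 2 lost (1.07%), chr17:46687589-46688162 and chr17:46599559-46599901, both in HOXB. The latter was also present in 2 of 3 DMSO libraries, so it separates the compounds but not WX-02-23 from DMSO. The mean difference in bases under peaks was 0.61 kb, and the differences between single libraries ran from −4.51 to 7.46 kb. This was the only pair of compounds compared with each other, and a spread of this width leaves differences of either sign possible.

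After PladB at 100 nM no HOX region met the rule for a loss, but less sequence lay under the deposited peaks in all 4 clusters. The 3 libraries held 27.7, 30.7 and 30.8 kb, all below the 34.7 to 35.3 kb of DMSO. The mean was 15.1% lower in the HOX windows and 15.2% lower over the whole lists. The difference of −5.28 kb was −3.83 kb with lists of equal length. It was −0.93 kb in windows of fixed width around the summits, where HOXC turned (0.47 kb). As deposited, the reduction was 15.9% in HOXA, 17.1% in HOXB, 11.5% in HOXC and 19.7% in HOXD, without overlap of the groups in each. The number of HOX bases per 10000 covered bases was 9.15 ± 0.28 against 9.15 ± 0.21 (SD, n = 3 each). The background was lower as well, at 0.705 ± 0.038 against 0.935 ± 0.062 reads per base, and its part in the result was not tested. Gained and lost regions were 0 of 92 in both directions (0.187% and 1.68% genome-wide). At 10 nM the libraries held 28.8, 33.7 and 34.7 kb, and the highest of them differed from the lowest DMSO library by only −0.034 kb. Without replicate 3 of this group, the difference of −2.60 kb from DMSO became −0.80 kb. The region chr2:177001453-177001766 in HOXD was the only region gained at 10 nM, 1 of 90 (0.408% genome-wide), at percentiles 4.80, 29.1 and 4.27, and 0 were lost (0.556%). Between the doses, 0 of 88 regions were gained (0.121%) or lost (1%), and the libraries overlapped in all windows but HOXD, where 2.86 to 3.05 kb at 100 nM lay below 3.56 to 4.14 kb at 10 nM.

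The widths of the parental HOX peaks were compared in the same way, over regions that all libraries of both groups held. A region counts as narrower or wider when the libraries of the groups do not overlap. After WX-02-23, 4 of 57 regions were narrower (7.02%, against 6.75% genome-wide) and 5 wider (8.77% against 10.2%). After WX-02-43, 4 of 56 were narrower (7.14% against 5.86%) and 4 wider (7.14% against 4.13%). Between the stereoprobes, 1 of 57 was narrower (1.75% against 5.37%) and 3 wider (5.26% against 10.2%) with WX-02-23. PladB at 10 nM gave 5 narrower regions of 56 (8.93% against 6.95%) and 0 wider (4.42% genome-wide). At 100 nM there were 7 narrower of 50 (14%, against 19.6%) and 0 wider (1.6%), and between the doses 1 of 48 was narrower (2.08% against 15%) and 0 wider (1.33%). The HOX counts are small, and no test of these shares was made. Merged HOX regions were wider than those of the genome (median 454 against 351 bp), and no comparison of widths with the genome was matched for this. After PladB at 100 nM the median of the per-region changes in width was −11.8% in HOX regions and −7.87% over the genome.

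**Figure D4:**
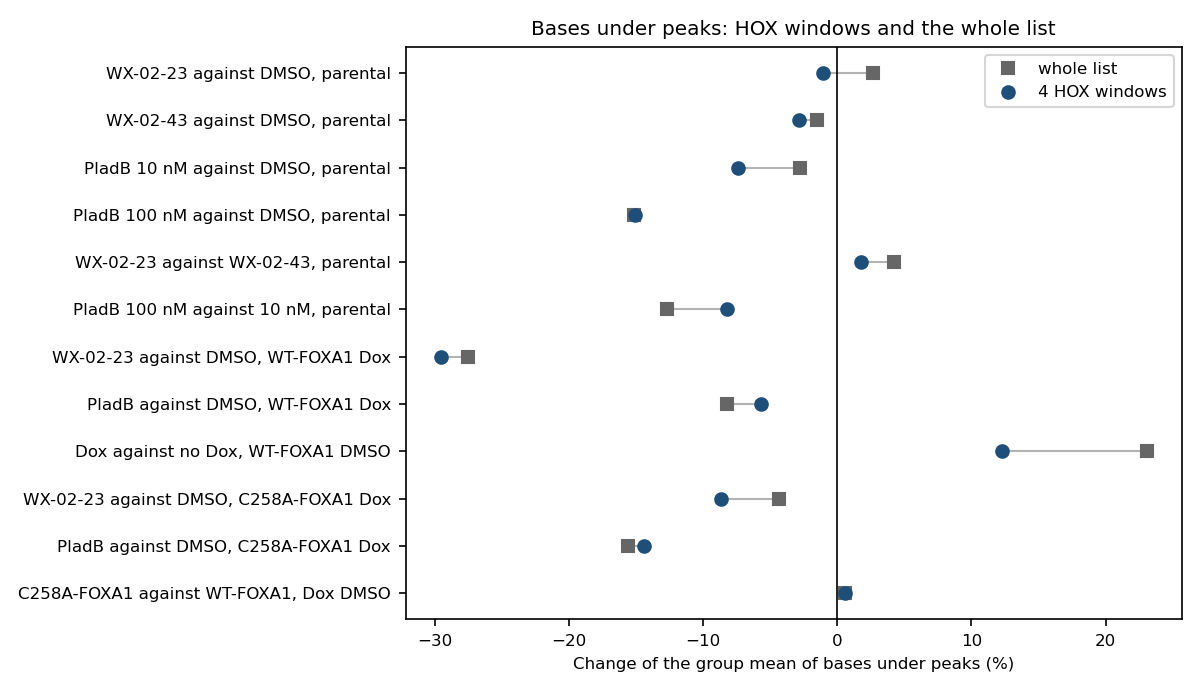
Percent change of the group mean of bases under peaks in the 12 comparisons, for the 4 HOX windows together (circles) and for the whole peak lists (squares). The HOX change lies close to that of the list after PladB at 100 nM (−15.1 and −15.2%) and WX-02-23 in the WT-FOXA1 line (−29.6 and −27.5%), and below it for Dox against no Dox (12.2 and 23.1%).

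With induced WT-FOXA1, WX-02-23 was followed by fewer and narrower HOX peaks. The 2 libraries held 17.0 and 18.8 kb under peaks, against 25.3 and 25.6 kb in DMSO. This is 29.6% less in the HOX windows, beside 27.5% less over the whole lists. The difference of −7.53 kb was −4.15 kb with lists of equal length and −2.87 kb in summit windows. The mean differed by −46.4% in HOXD, −37.9% in HOXA, −24.7% in HOXB and −17.97% in HOXC, and the groups did not overlap in any cluster. HOX bases per 10000 covered bases were 7.97 and 7.80 against 7.98 and 8.26. The background per base was higher after WX-02-23 (0.903 and 1.256 against 0.869 and 0.844), and its part was not tested. Of 66 regions, 0 were gained (1.31% genome-wide) and 2, or 3.03%, were lost, below the 11.7% lost genome-wide. The lost regions were chr17:46696462-46696686 in HOXB, at percentiles 46.7 and 31.3 in DMSO, and chr7:27212524-27213115 in HOXA, at 49.7 and 25.8. Leaving a library out can only add to the lost count, in HOX regions or elsewhere. It was 10 of 65 (15.4%, against 19% genome-wide) without replicate 1 and 5 of 66 (7.58% against 15.7%) without replicate 2 of WX-02-23. For DMSO it was 5 of 60 (8.33% against 21%) without replicate 1 and 8 of 63 (12.7% against 23.2%) without replicate 2. With 50% of a region required under peaks the lost count was 13 of 50 (26% against 15.8%). By this rule a region can be lost while every library keeps a peak there, as at chr2:177005239-177005896, held by all 29 libraries. This count therefore takes in narrowed peaks and is not a share of regions left without a peak.

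The narrowing was measured on the 40 HOX regions that all 4 libraries of this comparison held. In 25 of them (62.5%) both WX-02-23 libraries had fewer bases under peaks than both DMSO libraries, against 51.9% of such regions genome-wide. A single region (2.5%) was wider, against 4.6% genome-wide. The median change was −20.2%, beside −12.8% for the genome. Neither the shares nor the medians were matched for the width of the regions. By cluster, 11 of 14 regions in HOXA were narrower, 7 of 12 in HOXB, 5 of 11 in HOXC and 2 of 3 in HOXD. At the strongest HOXA region, chr7:27169847-27171094, 802 and 798 bp in DMSO stood against 435 and 549 bp. At chr7:27135333-27136824 the widths were 1173 and 1157 bp in DMSO and 707 and 828 bp after WX-02-23. In HOXD, chr2:177005239-177005896 had 533 and 489 bp in DMSO and 257 and 233 bp after the compound. The most narrowed region, chr17:46655371-46656071 in HOXB, went from a mean of 466.5 to 200.5 bp (−57.0%). The wider region was chr12:54426930-54427726 in HOXC, with 300 and 377 bp in DMSO and 498 and 567 bp after WX-02-23. It was also wider after PladB in this line (428 and 577 bp) and without Dox (451 and 501 bp). All of these share the same DMSO libraries with Dox. These 2 regions were picked by their values, and none of the widths has a test.

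**Figure D5:**
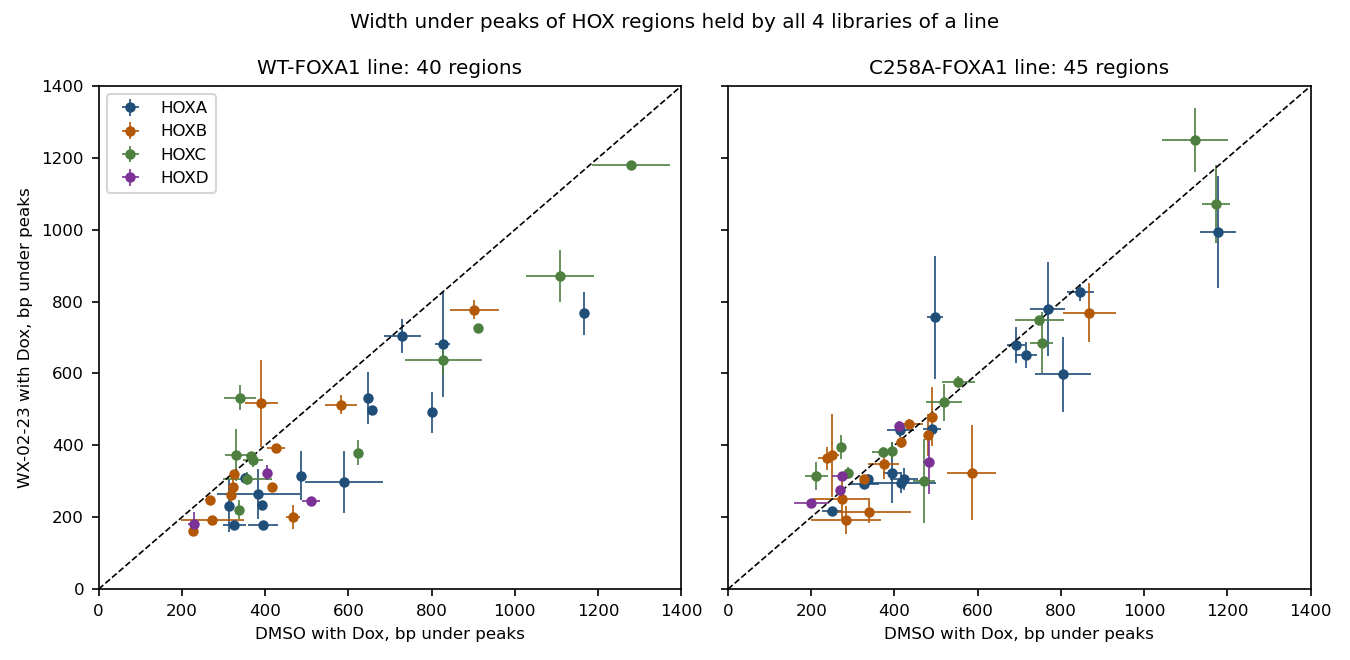
Bases under peaks of each HOX region after WX-02-23 (vertical, bp) against DMSO (horizontal, bp), both with Dox; points are means and bars join the 2 libraries, and the dashed line marks equality. In the WT-FOXA1 line 25 of 40 regions lie below the line without overlap of the libraries, and in the C258A-FOXA1 line 11 of 45.

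With induced C258A-FOXA1, the 2 WX-02-23 libraries disagreed. They held 20.3 and 26.5 kb under HOX peaks, against 25.5 and 25.8 kb in DMSO, so the groups overlapped. The first of them also had the lower background (0.648 against 0.917 reads per base). Without it the difference changed from −2.22 to 0.89 kb. HOX bases per 10000 covered bases were 7.65 and 7.84 against 8.18 and 8.05, without overlap. In this line 11 of 45 regions held by all 4 libraries were narrower (24.4%, against 23.2% genome-wide) and 7 were wider (15.6% against 11.4%). The narrower count was 17 without replicate 1 of WX-02-23, 26 without its replicate 2 and 22 without replicate 2 of DMSO. Leaving a library out can only add to such a count, in HOX regions or elsewhere. No genome-wide share was computed for these counts, so their rise is no result about HOX regions. All 8 libraries of both lines held 39 HOX regions, of which 24 were narrower in the WT-FOXA1 line, 9 here and 6 in both. The shared regions are 25% of the 24 and 66.7% of the 9, against 26.8% and 59.8% of the same lists genome-wide. Of the 25 regions narrower in the WT-FOXA1 line, 3 were wider here. The regions given as examples for the WT-FOXA1 line differed among themselves here. At chr17:46655371-46656071 the widths were 645 and 526 bp in DMSO and 191 and 456 bp after WX-02-23, and at chr2:177005239-177005896 they were 469 and 495 against 265 and 443 bp, so both were narrower in this line too. At chr7:27169847-27171094 (726 and 811 against 649 and 911 bp) and chr7:27135333-27136824 (1220 and 1134 against 839 and 1150 bp) the groups overlapped. At chr2:176941699-176942230, narrower in the WT-FOXA1 line (417 and 394 against 304 and 344 bp), the region was wider here, at 418 and 406 bp in DMSO and 439 and 469 bp after the compound. The difference between the lines was not tested. Of 68 regions, 2 were gained (2.94%, against 2.37% genome-wide), chr2:176987078-176988050 and chr2:176976646-176976966 in HOXD, and 3 were lost (4.41% against 2.55%). The lost regions were chr2:176975984-176976366 in HOXD, chr17:46719789-46720182 in HOXB and chr12:54433981-54434259 in HOXC. The lost count was 9 of 67 (13.4%, against 9.81% genome-wide) without replicate 2 of WX-02-23, 6 of 66 (9.09% against 7.95%) without replicate 1 of DMSO and 5 of 65 (7.69% against 6.77%) without its replicate 2. Leaving a library out can likewise only add to the lost count.

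Between WT-FOXA1 cells with and without Dox, 1 HOX region met the rule for a gain, at the end of the HOXC window, and this call was lost with lists of equal length. At chr12:54461972-54462477, the region of the HOXC window nearest to its high-coordinate end, both Dox DMSO libraries had a peak (percentiles 56.6 and 17.3) and both libraries without Dox had none. With the lists cut to the length of the shortest, 1 of the 2 Dox libraries kept it, and no HOX region was gained. In the deposited lists it was present in all 12 libraries with Dox, including those with C258A-FOXA1 (18.7 to 59.0) and with WX-02-23 (14.7 and 29.4 in the WT-FOXA1 line), and in 0 of 15 parental libraries. It was the only HOX region gained, 1 of 67 or 1.49%, whereas 13.2% of regions were gained genome-wide. No HOX region was lost (1.1% genome-wide). With a single library left out, which can only add to the gained count, it was 5 without replicate 1 and 4 without replicate 2 of either group. These are 5.97% to 7.81%, against 15.9% to 23.1% genome-wide. Bases under HOX peaks were 25.3 and 25.6 kb with Dox and 22.7 kb in both libraries without. That is 12.2% more, beside 23.1% more over the whole lists. The difference of 2.78 kb became 0.43 kb with lists of equal length, with HOXA (−0.14 kb) and HOXD (−0.33 kb) turned, and 1.03 kb in summit windows, with HOXC turned (−0.10 kb). HOX bases per 10000 covered bases were accordingly lower with Dox, at 7.98 and 8.26 against 8.68 and 9.13, without overlap. Of 45 regions held throughout, 14 were wider with Dox (31.1%, against 25% genome-wide) and 4 narrower (8.89% against 12.4%). Dox was not given to cells without an inducible gene, so its own effect and that of FOXA1 cannot be told apart.

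PladB was given to both engineered lines, and the difference between them was not tested. In the C258A-FOXA1 line the HOX windows held 21.9 kb in both PladB libraries, against 25.5 and 25.8 kb in DMSO. The mean was 14.4% lower, beside 15.6% over the whole lists, and lower without overlap in all 4 clusters. The difference of −3.69 kb was −2.24 kb with lists of equal length and −1.18 kb in summit windows. The background was also lower (0.546 and 0.587 against 0.750 and 0.866 reads per base), and its part was not tested. Here 18 of 47 regions were narrower (38.3%, against 36.3% genome-wide) and 5 wider (10.6% against 6.04%). Of 68 regions, 1 was gained (0.806% genome-wide), chr2:176987078-176988050, and 2 were lost (4.67%), chr12:54368344-54368653 and chr2:176957369-176958314. In the WT-FOXA1 line the 2 PladB libraries held 20.2 and 27.8 kb, either side of the 25.3 and 25.6 kb of DMSO. The difference was 2.31 kb without replicate 1 of PladB and −5.21 kb without its replicate 2. There 10 of 49 regions were narrower (20.4% against 22.4%) and 5 wider (10.2% against 9.56%). Of 69 regions, 0 were gained (0.915%) and 2 lost (3.05%), chr17:46696462-46696686 and chr2:176975984-176976366. Both lines carry Y36C-PHF5A, and no engineered line without it was included.

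In DMSO with Dox, the C258A-FOXA1 and WT-FOXA1 lines held similar amounts of HOX sequence under peaks. The former held 25.5 and 25.8 kb under HOX peaks and the latter 25.3 and 25.6 kb, and the differences between single libraries ran from −0.14 to 0.43 kb. Of 71 regions, 1 was gained in C258A-FOXA1 (1.41%, against 3.7% genome-wide), chr2:176957369-176958314 at percentiles 0.0463 and 7.14, and 1 was lost (1.41% against 3.82%), chr17:46696462-46696686. The same DMSO libraries served in the compound comparisons above, so the return of these regions here is not independent. Among 50 regions held by both, 10 were narrower (20% against 18%) and 10 wider (20% against 20.3%).

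The regions of each parental group were also tested against the 12 other parental libraries by Fisher's exact test, two-sided, with Benjamini-Hochberg adjustment over 81400 regions, of which 54 lay in HOX clusters. No HOX region passed an adjusted p of 0.05, and none did genome-wide. The lowest unadjusted p that 3 against 12 libraries allow is 0.0022, so at least 3579 regions would have to reach it before any could pass, and the count of 0 says little about single regions. At an unadjusted p below 0.05, the count of HOX regions was 0 for DMSO (1.55% genome-wide), 2 for WX-02-23 (6.12%), 3 for WX-02-43 (1.72%), 0 for PladB at 10 nM (1.25%) and 1 for PladB at 100 nM (2.68%). The 2 for WX-02-23 were chr12:54403082-54403285, held by 2 of the 3 libraries and no other parental one, and chr17:46687589-46688162. The 3 for WX-02-43 were chr12:54426421-54426859, chr17:46599559-46599901 and chr17:46691602-46691874. The region for PladB at 100 nM was chr7:27143129-27143770, held by 1 of its 3 libraries and by all 12 others.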

How the data were processed

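ATAC-seq was done on 15 parental and 14 engineered 22Rv1 libraries. Per the submitters' processing notes, Bowtie2, MACS2 and build hg19 were used; no version or setting is stated in what was read here. The authors deposited 1 narrowPeak list per library, with a score, a fold over background (a ratio), −log10 p, −log10 q and a summit offset per peak; the fold and p of a peak served to rank or describe it inside its own list, since ranks from lists of different lengths show no change. Every deposited peak had a −log10 q of at least 2.00, and the narrowest spanned 150 bp.

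Peaks were merged over the 29 libraries wherever they overlapped by 1 bp or more. Presence, bases under peaks and 10 kb bins were then computed with Python 3.11.15, numpy 2.4.6, pandas 2.3.3 and scipy 1.17.1. The relative depth is the background at which a Poisson model gives both the fold and the p-value of a list's peaks. Regions are named by a rule: the 3 with the highest median percentile in each cluster, every gained or lost region (up to 5 per direction), and the widest stretch without a peak; others are marked in the text as chosen after their values were seen. Widths were compared only where every library had a peak, a measure added after seeing the data. The tests were Fisher's exact test and, for the replicate block, an exact test stratified by replicate number. Fisher's exact test and the gained and lost calls were run on simulated data. The changed regions were set to meet the rule of the calls, so their recovery by the unadjusted calls was fixed in advance and checks the code only. The adjusted threshold did not recover them. Recovery by the stratified test was not checked. Alternatives were a q-value of 1e-05, lists of equal length, 50% of a region covered, summit windows of 100 bp each side, single libraries left out and a replicate block. Whether equal replicate numbers mark pairs is not known. Over HOX regions, same-numbered parental libraries had a median correlation of 0.05 in their deviations (−0.12 to 0.30), against −0.03 for other numbers. In engineered cells the medians were −0.08 (−0.26 to 0.36) and 0.08. These are opposites by construction, since the deviations of 2 libraries from their mean mirror each other, so they cannot exclude pairs.

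The members and lists were chosen with earlier results of these data known. Gene positions on hg19 were not used, so the lists of HOX cofactors and chromatin regulators were not analysed here. The RefSeq table read here matched 20 of 37 genes; upstream sequence of HOXA5, HOXB2 to HOXB9, HOXC6, HOXC8 to HOXC13 and HOXD9 was not used here.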

Additional observations from a re-analysis of the deposited data

How the results depend on the processing

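Counts of gained and lost HOX regions are small and moved with the processing. Over the 4 windows together, the direction of covered bases held where the groups compared did not overlap. Where they overlapped, it changed sign in several comparisons when a library was left out. With only peaks at a q-value of 1e-05 or below, lost regions became 0 for parental WX-02-23 against DMSO, 1 for WX-02-23 against WX-02-43 and 5 of 62 for WX-02-23 in the WT-FOXA1 line (8.06%, against 12.4% genome-wide). Gained regions became 1 for WX-02-43 and 0 for PladB at 10 nM, WX-02-23 and PladB in the C258A-FOXA1 line, and C258A-FOXA1 against WT-FOXA1. With lists cut to equal length, gained regions became 0 for PladB at 10 nM and for Dox, and 1 for either compound in the WT-FOXA1 line. Lost regions then became 0 for WX-02-23 against WX-02-43, 1 for WX-02-23 in the WT-FOXA1 line, 1 for Dox, and 1 for WX-02-23 and 0 for PladB in the C258A-FOXA1 line. With 50% of a region required under peaks, lost regions became 13 of 50 for WX-02-23 (26% against 15.8%) and 4 of 58 for PladB (6.9% against 4.39%) in the WT-FOXA1 line, 5 of 51 for PladB in the C258A-FOXA1 line (9.8% against 7.57%), 3 of 56 for C258A-FOXA1 against WT-FOXA1 (5.36% against 4.88%), 1 for PladB at 100 nM against DMSO and against 10 nM, 1 for Dox, and 0 for WX-02-23 against DMSO and against WX-02-43 in parental cells. At this setting a region can be lost while every library keeps a narrower peak in it. Gained regions became 3 of 52 for Dox (5.77% against 13.9%), 2 for C258A-FOXA1 against WT-FOXA1, 1 for parental WX-02-43, 1 for either compound in the WT-FOXA1 line and 0 for either in the C258A-FOXA1 line. The other counts here, of 0 to 2, are of 83 to 91 regions in parental and 50 to 69 in engineered cells. Their genome-wide shares are not given here, so they describe how the calls moved and are no result about HOX regions. The cause was not tested.

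With lists of equal length, the difference in bases under HOX peaks shrank from −5.28 to −3.83 kb for PladB at 100 nM, from −7.53 to −4.15 kb for WX-02-23 in the WT-FOXA1 line, from 2.78 to 0.43 kb for Dox and from −3.69 to −2.24 kb for PladB in the C258A-FOXA1 line. Dox then reversed in HOXA (−0.14 kb) and HOXD (−0.33 kb). Summit windows, which fix the width of each peak, gave −0.93, −2.87, 1.03 and −1.18 kb for the same 4 comparisons, with HOXC reversed for PladB at 100 nM (0.47 kb) and for Dox (−0.10 kb). The q-value limit gave 3.27 kb for Dox, −3.50 kb for PladB in the C258A-FOXA1 line and −0.37 kb for C258A-FOXA1 against WT-FOXA1. The count of regions narrower after WX-02-23 in the WT-FOXA1 line was 22 of 37 and 23 of 38 under the q-value and equal-length settings. No genome-wide share was computed for these counts of narrower regions.

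With single libraries left out, HOX counts are of 85 to 93 regions in parental and 60 to 70 in engineered cells. The genome-wide shares, pooled over comparisons and directions, were 0.248% to 3.37% and 2.13% to 23.2%. These pooled shares are not matched to single comparisons. The gained and lost counts below therefore describe how the calls moved and are no result about HOX regions. Leaving a library out can only add to them. Gained regions ran from 0 to 2 for parental WX-02-23, 0 to 3 for WX-02-43, 1 to 2 for PladB at 10 nM, 0 to 1 for PladB at 100 nM, 0 to 1 for WX-02-23 against WX-02-43, 0 to 2 for PladB at 100 against 10 nM, 0 to 1 for WX-02-23 with WT-FOXA1, 1 to 3 for PladB with WT-FOXA1, 4 to 5 for Dox, 2 to 3 for WX-02-23 with C258A-FOXA1, 1 to 3 for PladB with C258A-FOXA1 and 2 to 5 for C258A-FOXA1 against WT-FOXA1. Lost regions ran from 1 to 3 for parental WX-02-23, 0 to 1 for WX-02-43, 0 to 1 for PladB at 10 nM, 0 to 3 for PladB at 100 nM, 2 to 5 for WX-02-23 against WX-02-43, 0 to 4 for PladB at 100 against 10 nM, 5 to 10 for WX-02-23 with WT-FOXA1, 2 to 5 for PladB with WT-FOXA1, 0 to 2 for Dox, 4 to 9 for WX-02-23 with C258A-FOXA1, 5 to 5 for PladB with C258A-FOXA1 and 1 to 4 for C258A-FOXA1 against WT-FOXA1. Differences in bases under peaks (kb) ran from −1.52 to 0.35 for parental WX-02-23, −2.82 to 1.30 for WX-02-43, −3.75 to −0.80 for PladB at 10 nM, −5.79 to −4.28 for PladB at 100 nM, −1.68 to 2.44 for WX-02-23 against WX-02-43, −4.48 to −1.53 for PladB at 100 against 10 nM, −8.42 to −6.63 for WX-02-23 with WT-FOXA1, −5.21 to 2.31 for PladB with WT-FOXA1, 2.64 to 2.92 for Dox, −5.32 to 0.89 for WX-02-23 with C258A-FOXA1, −3.83 to −3.54 for PladB with C258A-FOXA1 and 0.004 to 0.29 for C258A-FOXA1 against WT-FOXA1. Narrower regions ran from 29 to 35 with WT-FOXA1 and from 14 to 26 with C258A-FOXA1. Leaving a library out can only add to these counts of narrower regions, and no genome-wide share was computed for them. Passing regions in Fisher's exact test ran from 0 to 0. A replicate block, which compares libraries of equal number, gave the same gained and lost calls by construction. A call already requires every library of both groups, so this says nothing on how stable the calls are. In the stratified exact test 0 HOX regions passed. Whether equal numbers mark pairs is not known. The region lost with parental WX-02-23 had a mean percentile of 8.61 in DMSO. With lists of equal length, 0 WX-02-23 and 3 DMSO libraries held it. The part of depth in this call was not tested.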
